A study of Mus musculus with 29 samples.

Results

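RNA bound to microglial ribosomes was compared with the RNA left unbound in the same half-brain, in 6 Cx3cr1-NuTRAP mice. The comparison holds the 6 positive and the 6 negative TRAP libraries of this line, 12 of the 29 libraries of the series, paired by the animal numbers 155, 192, 194, 209, 210 and 277 that the labels give. All 6 mice were Cx3cr1-cre/ERT2+; NuTRAP+ and had received tamoxifen (Tam), at about 3 months of age per the study's methods, and no group here was without Cre or without Tam. Mice of both sexes were used, and the sex of each is not in the labels. Both fractions came from 1 cleared homogenate per mouse. The positive fraction was pulled down with an antibody against GFP, and the negative fraction was what the beads left behind. The 3 mice of a second line, Aldh1l1-cre/ERT2+; NuTRAP+ (animals 290, 293 and 294), also given Tam, were used for 1 comparison, with a positive and a negative library each. Their Cre is driven from Aldh1l1, an astrocyte gene. The labels give no batch for any library.

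In the NuTRAP construct, Cre switches on an EGFP-tagged copy of the ribosomal protein L10a, so that ribosomes of the cells in which Cre has acted can be pulled down with their mRNA, a procedure called translating ribosome affinity purification (TRAP). Here Cre is driven from Cx3cr1, the fractalkine receptor gene, which microglia express and which macrophages at the borders of the brain express as well. Microglia are the resident macrophages of the brain. They clear debris through lysosomes, survey the tissue with actin-driven processes and present antigen, so a gene used by microglia and by many other brain cells alike can be only modestly enriched on their ribosomes. The negative fraction still held the unbound RNA of the microglia, and it served as the comparator in every mouse. In such bulk RNA, a change in the number of cells and a change in RNA per cell cannot be told apart.

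Total counts were between 15486605 and 19831228 in the positive fractions and between 18297512 and 24999098 in the negative fractions. The libraries of mouse 155 stood apart by transcript length, the negative one by more for transcripts up to 1 kb. The ratio of positive to negative in this mouse moved with transcript length opposite to that in mice 192, 209, 210 and 277. Mouse 194 showed little trend. Transcripts with a spliced length up to 1 kb (957 genes) had a median log2 ratio, less the median of all tested genes, of -0.61 in mouse 155 and of 0.03 to 0.31 in the other mice. Transcripts over 8 kb (460 genes) had 0.48 in mouse 155, 0.05 in mouse 194, -0.12 in mouse 192 and -0.30 to -0.29 in mice 209, 210 and 277. Relative to the mean of the 6 mice, the short transcripts were at 0.48 log2 units in the negative fraction of mouse 155 and at -0.14 to -0.014 in those of the other mice. In the positive fraction they were at -0.23 in mouse 155, at -0.15 in mouse 194 and at up to 0.17 in the others. Transcripts over 8 kb were at -0.28 in the negative and at 0.30 in the positive fraction of mouse 155. In the other mice they were at 0 to 0.12 in the negative and at -0.22 to 0.19 in the positive fraction. The cause was not tested, and the counts of higher or lower genes of a whole list or length bin that moved by over 1.5 times without this mouse are given both ways.

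**Figure D1:**
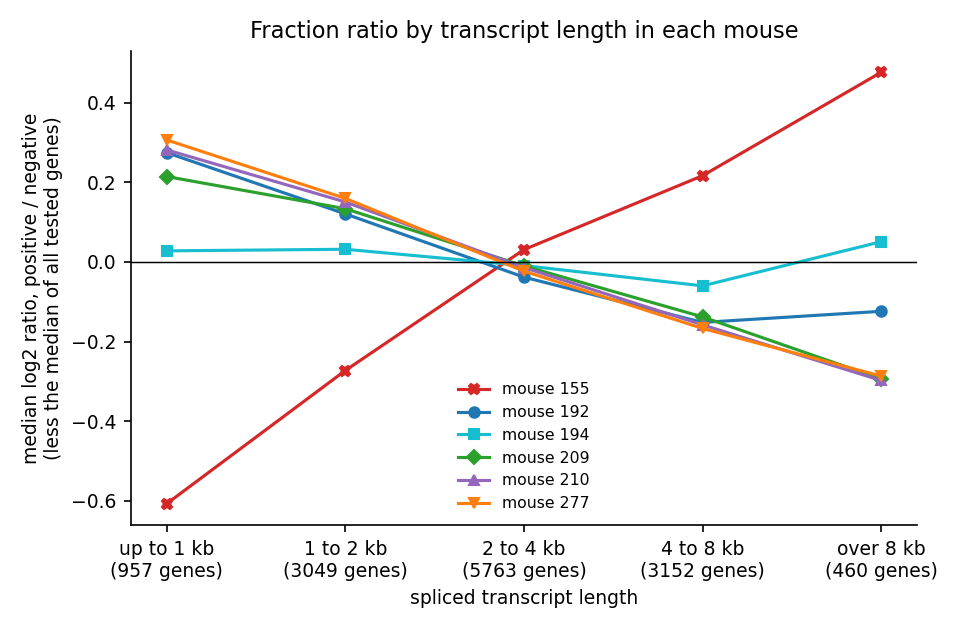
Median log2 ratio between the fractions (y axis, positive over negative, less the median of all tested genes) in 5 bins of spliced transcript length (x axis), with a line for each of the 6 mice. Mouse 155 runs from -0.61 for transcripts up to 1 kb to 0.48 over 8 kb, whereas mice 209, 210 and 277 run from between 0.22 and 0.31 to between -0.30 and -0.29.

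The label was first checked against microglial markers. C1qa, a chain of the complement component C1q (chr4:136895916-136898844 of mm10, minus strand), had 36.0 to 66.3 CPM (counts scaled to library size) in the 6 negative fractions and 415 to 1010 CPM in the positive fractions, around medians of 42.1 and 586 CPM. Cx3cr1 itself (chr9:120048683-120068296, minus strand) had 22.4 to 28.7 CPM in the negative and 199 to 449 CPM in the positive fractions. The allele that drives Cre is at this gene, so its counts are not a neutral marker. Aif1, which encodes the microglial protein Iba1 (chr17:35170992-35176001, minus strand), had 4.43 to 7.78 CPM in the negative and 45.9 to 129 CPM in the positive fractions. For none of these 3 genes did the fractions overlap, and the ratio was highest in mouse 194, at 4.16 to 4.76 log2 units. The log2 fold changes in edgeR, with the mouse as a block, were 3.77 ± 0.22 (SE) for C1qa, 3.38 ± 0.17 for Cx3cr1 and 3.65 ± 0.23 for Aif1, with adjusted p of 7.62e-06, 5.18e-06 and 9.86e-06.

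At an adjusted p under 0.05, 1278 of the 13776 tested genes (9.28%) had more RNA in the positive fraction and 1100 (7.98%) had less. Enrichment reached further than depletion. A fold of 5 or more was seen for 291 higher genes (2.11%) and for 0 of the lower genes in edgeR, where 4624 genes had an unadjusted p under 0.05. By DESeq2, with the same block, 1689 genes were higher and 1512 lower. A change was called modest here when it was significant, between 1.2-fold and 5-fold, and of 1 direction in 6 of 6 mice. This held for 915 higher genes (6.64%) and 969 lower genes (7.03%). Modest enrichment was spread over the range, with 603 genes between 1.2-fold and 2-fold, 181 between 2-fold and 3-fold and 131 between 3-fold and 5-fold. Modest depletion was not, with 948 genes between 1.2-fold and 2-fold, 21 between 2-fold and 3-fold and 0 beyond.

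The range of CPM in the positive fractions lay wholly above that in the negative fractions for 1058 of all tested genes (7.68%) and wholly below it for 716 (5.2%). The 2 fractions did not overlap for 705 of the 915 modestly higher genes and for 572 of the 969 modestly lower genes. Near the limit of 5-fold, Adap2 and Fmnl3 were just above, both at 2.33 on the log2 scale, and Cmtm7 and Itgb5 just below, at log2 fold changes of 2.31 and 2.29. Near 1.2-fold, Ik was just inside among the higher genes and Hnrnpl just outside, and among the lower genes Cdk19 was just inside and Tmem189 just outside.

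**Figure D2:**
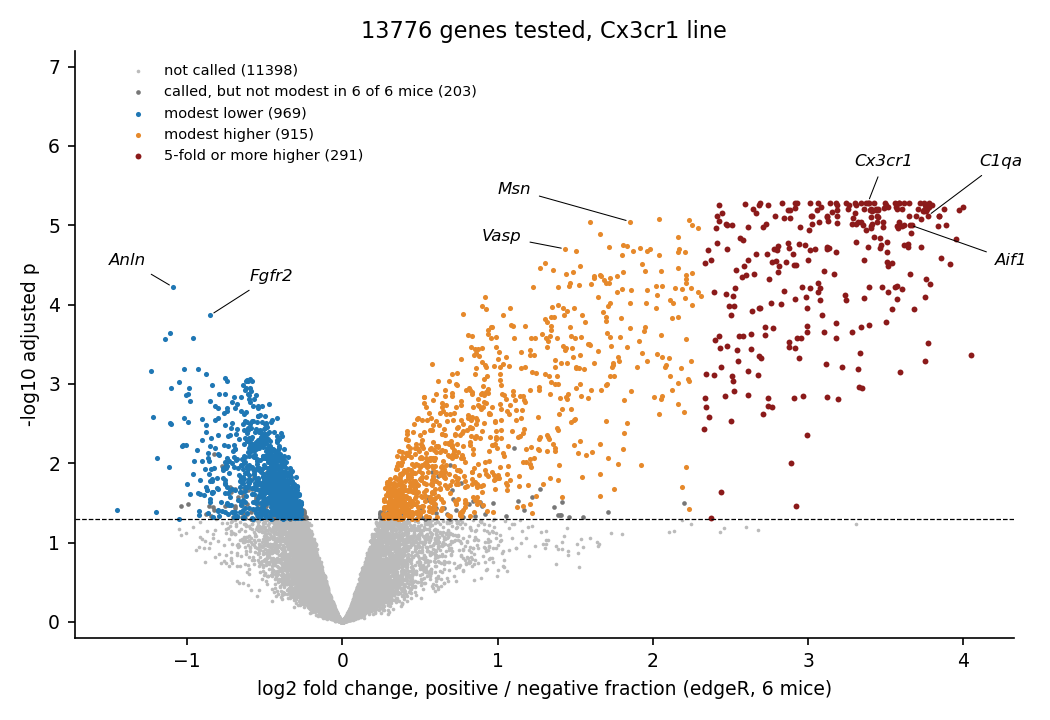
Log2 fold change of positive over negative fraction (x axis) against −log10 of the adjusted p (y axis, edgeR with the mouse as a block), 1 point per gene, coloured by class, with the dashed line at the adjusted p of 0.05. The 291 genes with 5-fold or more are all to the right, and the 969 modestly lower genes reach no further down than a log2 fold change of -1.45.

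Without mouse 155, 1902 genes (13.7%) were higher and 2134 (15.3%) were lower, and 874 of the 915 modestly higher and 925 of the 969 modestly lower genes stayed in their class. Leaving out another mouse cost more calls among the lower than among the higher genes. In the 6 fits that each leave out 1 mouse, between 613 and 895 of the modestly higher genes and between 296 and 937 of the modestly lower genes stayed significant in the same direction, with the lowest number without mouse 192 in both. In all 6 of these fits, 557 of the higher (60.9%) and 277 of the lower genes (28.6%) did. The genes with 5-fold or more were steadier, at 288 of 291. Genes named from here on that lost their call in any of these fits are given with the number of fits that kept it.

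The modestly higher genes with the lowest p were taken in each band of fold. Between 3-fold and 5-fold they included Blnk, Msn and Tgm2. Blnk, an adaptor in immune-receptor signalling (chr19:40928927-40994535, minus strand), had 3.06 to 5.12 CPM in the negative and 15.3 to 34.0 CPM in the positive fractions, 4.71-fold higher (log2 2.24 ± 0.14, SE, adjusted p = 8.62e-06 in edgeR). Msn encodes moesin, which links actin to the membrane, and rose from a median of 31.3 to 99.7 CPM (3.61-fold). Tgm2, a transglutaminase, rose from 10.5 to 32.4 CPM (3.02-fold). Within mice, the log2 ratios ran from 1.83 to 2.71 for Blnk and from 1.42 to 1.94 for Tgm2, with mouse 194 the highest for all 3 genes.

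Between 2-fold and 3-fold they were Vasp, Itgb3, Tmem86a and Pde3b. Vasp, an actin-filament elongation factor, had 17.2 to 19.7 CPM in the negative and 39.3 to 67.0 CPM in the positive fractions, 2.71-fold higher (adjusted p = 1.99e-05, edgeR). Itgb3, an integrin beta subunit, rose 2.84-fold from a median of 5.42 to 14.6 CPM, Tmem86a 2.48-fold and Pde3b, a phosphodiesterase, 2.88-fold. Between 1.2-fold and 2-fold they were Camk1, Kctd12, Rcbtb2 and Cd34. Camk1, a calcium/calmodulin-dependent kinase, had 70.1 to 78.3 CPM in the negative and 122 to 175 CPM in the positive fractions, 1.89-fold higher (log2 0.92 ± 0.08, SE, adjusted p = 8.09e-05, edgeR). Kctd12 rose 1.87-fold from a median of 135 to 239 CPM and Rcbtb2 1.90-fold from 29.0 to 55.7 CPM. Cd34, which marks blood vessels and haematopoietic progenitors, rose 1.72-fold from 36.2 to 60.6 CPM. The fractions did not overlap for any of these 11 genes, and each stayed significant in all 6 fits that leave out 1 mouse.

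The modestly lower genes with the lowest p fell into 2 bands only. Between 2-fold and 3-fold lower were Anln, Efhd1, Slc13a4 and Il33. Anln encodes anillin, which is present in myelin (chr9:22331214-22389206, minus strand), and had 44.3 to 56.3 CPM in the negative and 18.8 to 30.4 CPM in the positive fractions, a fall of 2.13-fold (log2 -1.09 ± 0.09, SE, adjusted p = 6.01e-05 in edgeR). Efhd1 fell 2.16-fold from a median of 34.9 to 16.6 CPM. Slc13a4, a sulfate transporter, fell 2.21-fold from 19.5 to 8.93 CPM. Il33, a nuclear cytokine of glia, fell 2.03-fold from 81.8 to 42.5 CPM. Between 1.2-fold and 2-fold lower they included Fgfr2, a growth factor receptor, Fa2h, the fatty acid hydroxylase of myelin lipids, and Tspan2, a tetraspanin of oligodendrocytes. Fgfr2 had 76.5 to 82.7 CPM in the negative and 34.7 to 51.2 CPM in the positive fractions, 1.80-fold lower, and Fa2h and Tspan2 fell 1.95-fold and 1.84-fold. None of these 7 overlapped between fractions, and all 7 were called in all 6 fits that leave out 1 mouse.

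**Figure D3:**
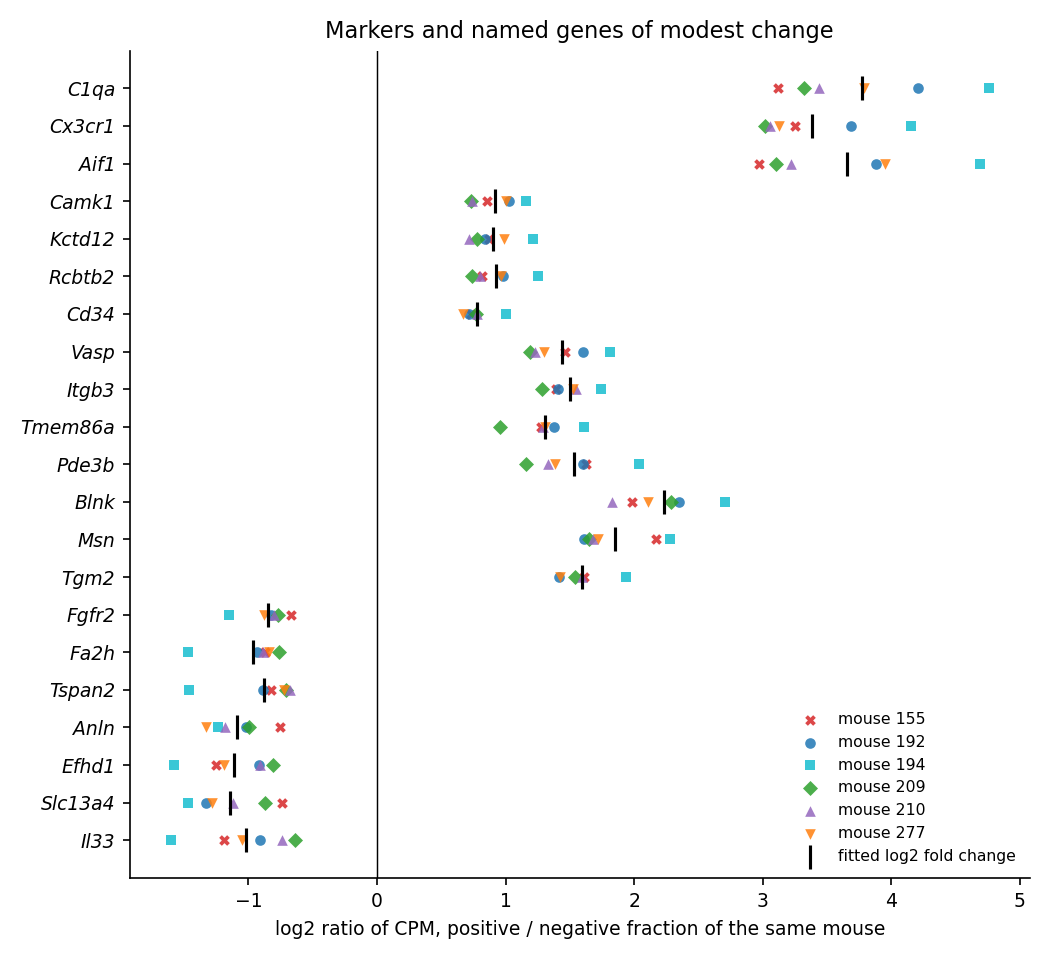
Log2 ratio of CPM, positive over negative fraction of the same mouse (x axis), for the 3 markers and the 18 named genes of modest change (y axis), with a symbol for each of the 6 mice and a bar at the fitted log2 fold change. The definition of modest change puts all points of each of the 18 genes on 1 side of 0, and those of the markers lie above 0. Mouse 194 is farthest from 0 for every gene but Anln.

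Lysosomal genes were mostly modest in their enrichment. Of 56 tested, 28 were higher, 21 of them modestly, and 1 was lower, against 9.28% and 7.98% of all genes. Without mouse 155, where 15.3% of all genes were lower, 3 were. The median log2 ratio of the list, less that of all genes, was 0.41 ± 0.16 (SD, n = 6 mice), and it was between 0.26 and 0.42 in 5 mice and 0.72 in mouse 194. By role, all 11 proteases rose, 3 of them over 5-fold, as did 12 of 27 glycosidases, lipases and sulfatases and 3 of 4 cofactors, and 2 of 14 membrane proteins. Without mouse 155 the membrane proteins had 5 higher and 2 lower, against 13.7% and 15.3% of all genes in that fit. Ctsd, an aspartic protease, had 375 to 480 CPM in the negative and 1226 to 2431 CPM in the positive fractions (3.95-fold, log2 1.98 ± 0.14, SE, adjusted p = 1.98e-05 in edgeR). Grn, the progranulin gene, rose 3.82-fold from a median of 69.9 to 251 CPM and Man2b1, an alpha-mannosidase, 4.63-fold from 51.3 to 215 CPM. Lgmn, Hexa and Ctsa rose 3.49-fold, 3.07-fold and 2.26-fold. Ctsb, a cysteine protease, rose only 1.44-fold, from a median of 598 to 887 CPM. Ids, iduronate sulfatase, went the other way, from a median of 449 to 294 CPM (1.51-fold lower, adjusted p = 0.00319, edgeR).

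The upstream sequences of these genes were searched on both strands for 2 motifs, in the 250 bases before each start site of the RefSeq table of GRCm38.p6, the assembly also called mm10. The first, TCACGTG, is the core of the E-box bound by TFEB, a regulator of lysosomal genes, and where an A follows it the same site also matches on the other strand. The second, GAGGAAG, is the core of the site of PU.1, the transcription factor of macrophages. The E-box stood in 12 of 49 windows of the lysosomal list (24.5%), in 53 of 978 windows of the modestly higher genes (5.4%) and in 646 of 14025 windows of all genes tested (4.6%). The PU.1 motif stood in 25.2% of 270 windows of the genes with 5-fold or more, 14.9% of the windows of the modestly higher, 14.3% of those of the lysosomal list (7 of 49), 11.2% of those of the modestly lower and 10.6% of those of all genes. These are descriptions of the letters in these windows and no evidence of binding. Windows were found for 10928 of the tested genes. The stretches of 3 enriched lysosomal genes that lie outside every annotated exon are shown, 5′ to 3′ on the strand of the gene, with the motif on either strand in capitals, Ctsd for the E-box and Man2b1 and Ctsc for the PU.1 motif. They are at chr7:142388039-142388077 (minus strand), chr8:85083019-85083268 (plus strand) and chr7:88277835-88278084 (plus strand). The PU.1 motif also stood before Lipa and Gm2a, which are not shown. These rose less (log2 0.42 and 0.345) than Man2b1 and Ctsc (2.21 and 2.87).
Ctsd: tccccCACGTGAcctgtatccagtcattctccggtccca
Man2b1: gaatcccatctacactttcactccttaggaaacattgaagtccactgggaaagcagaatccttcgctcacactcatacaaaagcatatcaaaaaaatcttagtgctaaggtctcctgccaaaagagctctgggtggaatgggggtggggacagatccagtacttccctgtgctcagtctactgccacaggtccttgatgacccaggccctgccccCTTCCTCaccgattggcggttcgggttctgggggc
Ctsc: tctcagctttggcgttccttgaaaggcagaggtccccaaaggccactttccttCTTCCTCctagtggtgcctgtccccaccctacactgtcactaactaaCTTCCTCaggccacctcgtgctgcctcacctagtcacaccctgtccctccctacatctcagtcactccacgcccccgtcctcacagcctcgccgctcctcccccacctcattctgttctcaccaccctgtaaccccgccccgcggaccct

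Over all genes tested, 9.28% were higher, 6.64% modestly and 2.11% by 5-fold or more, and 7.98% were lower. In antigen presentation all 7 tested genes of MHC class II rose, 4 of them over 5-fold, and 10 of 13 of class I rose, 8 modestly. Among the latter, B2m, the light chain of class I, had 66.6 to 93.6 CPM in the negative and 239 to 444 CPM in the positive fractions (3.89-fold). The class I heavy chains H2-K1 and H2-D1 rose 2.54-fold and 2.41-fold, with the caution that H2 genes share sequence and the counting could split their reads. The class II chain H2-Aa rose 4.75-fold from a median of only 3.40 CPM. In the JAK-STAT and interferon list, which held cytokine receptors and what they signal through, 21 of 43 genes rose, 13 modestly, and 0 fell. Of its receptors 11 of 14 rose, among them Ifngr1 (3.47-fold) and Il10rb (3.25-fold), compared with 1 of 4 kinases, 6 of 13 transcription factors and 3 of 12 inhibitors. Stat6 rose 2.72-fold from a median of 12.1 to 29.6 CPM, and Irf9 1.79-fold. In the NF-kappaB list 10 of 30 rose, 8 modestly, and 0 fell (2 without mouse 155, where 15.3% of all genes were lower), with Myd88, the adaptor of Toll-like receptors, at 2.24-fold and Nfkb1 at 1.87-fold. Transcripts of the NF-kappaB subunits and inhibitors made up 5 of these 10, out of 8 tested.

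Of 71 genes of the actin cytoskeleton 26 were higher, against 9.28% of all genes, and 6 were lower, which is near the 7.98% of all genes. The pairs that follow were chosen after their values were seen. Wasf2, an activator of the actin-nucleating complex Arp2/3, had 8.43 to 17.1 CPM in the negative and 35.5 to 76.7 CPM in the positive fractions (3.08-fold higher), while its relative Wasf1, abundant in neurons, had 204 to 214 CPM in the negative and 141 to 167 CPM in the positive fractions (1.37-fold lower, adjusted p = 0.00285, edgeR). Msn rose, and its relative Ezr, ezrin, fell 1.43-fold from a median of 62.8 to 42.3 CPM, with overlapping fractions. Pfn1 rose 1.52-fold, whereas Pfn2 had a log2 fold change of -0.38 (adjusted p = 0.0488, edgeR), a call kept in 0 of the 6 fits that leave out 1 mouse. The ubiquitous Actb, beta-actin, rose only 1.36-fold, from 1193 to 1279 CPM in the negative to 1393 to 1906 CPM in the positive fractions, without overlap.

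Of 28 genes of the integrin list 11 were higher and 4 lower, against 9.28% and 7.98% of all genes. Itgb5, the subunit just under 5-fold, rose from a median of 77.3 to 366 CPM, and Itgb1, found in most cells, from 69.8 to 90.0 CPM (1.40-fold). Itgb8 fell 1.99-fold, from a median of 9.77 to 4.92 CPM, with overlapping fractions, and the negative library of mouse 155 was the lowest of the 6 at 5.09 CPM. Itgb4 and Itgav fell 1.61-fold and 1.33-fold. Of 47 genes of G proteins and their regulators 11 were higher and 5 lower, against 9.28% and 7.98% of all genes, and without mouse 155 there were 10 lower, against 15.3%. Of the 12 alpha subunits among them 2 were higher and 1 was lower (3 lower without mouse 155). Among these, and chosen after their values were seen, Gnai2 rose 1.52-fold from a median of 243 to 356 CPM, and Gnai1 fell 1.38-fold from 211 to 154 CPM (5 of 6 fits). In glycolysis 5 of 32 genes were higher and 1 lower, against 9.28% and 7.98% of all genes (2 lower without mouse 155, against 15.3%), and Hk2 and Slc16a3 were among the former. Hk2, a hexokinase, went from 7.66 to 10.5 CPM in the negative to 32.8 to 64.3 CPM in the positive fractions (4.48-fold). Slc16a3, a lactate exporter, rose 1.95-fold, while Slc16a1, which carries lactate in glia and vessels, fell 1.55-fold (3 of 6 fits).

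Of the 21 homeostatic microglial genes all rose, 18 of them by 5-fold or more, against 9.28% and 2.11% of all genes. Among the modest ones, Mertk, a receptor for the uptake of dying cells, rose 2.62-fold from a median of 25.0 to 57.4 CPM and Sall1, a transcription factor of microglial identity, 2.37-fold from 36.7 to 81.3 CPM. All 12 genes of border-associated macrophages were 5-fold or more higher, with a summed level of 30.3 to 44.3 CPM in the negative and 173 to 547 CPM in the positive fractions. Microglia also express some of these genes at a low level. None of the 16 genes of the monocyte, neutrophil and lymphocyte list passed the count filter.

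Outside the immune lists, several RNAs that are not restricted to microglia were modestly higher. Of 26 long noncoding RNAs 1, Malat1, was higher and 3 were lower, against 9.28% and 7.98% of all genes. Malat1, which stays in the nucleus, had 432 to 786 CPM in the negative and 872 to 5418 CPM in the positive fractions, 4.11-fold higher (adjusted p = 0.00238, edgeR), with log2 ratios of 2.56, 2.76 and 3.11 in mice 155, 192 and 194 and of 1.01, 0.88 and 1.88 in mice 209, 210 and 277. Grin2b, a subunit of the NMDA receptor, rose 1.72-fold, in a list of postsynaptic receptor subunits of which 2 of 34 rose and 12 fell. Its ratios had the reverse order, at 0.12, 0.72 and 0.24 in the first 3 mice and 1.13 to 1.30 in the other 3. The endothelial list had the order of Grin2b. Of 17 tested, 5 were higher, 3 of them modestly (Eng, Pecam1 and Tie1), against 9.28% and 6.64% of all genes, and the list median was 0.11 to 0.12 in mice 155, 192 and 194 and 0.55 to 0.80 in mice 209, 210 and 277. Their summed level was 221 to 259 CPM in the negative and 225 to 394 CPM in the positive fractions. Eng, endoglin, which rose 2.62-fold, ran the other way, at 1.45 to 1.87 in the first 3 mice and 1.04 to 1.30 in the other 3. Pecam1, which macrophages also express, rose 1.81-fold and Tie1 1.51-fold (5 of 6 fits). The median of the microglial cell-sorting list was 2.71 to 3.39 in the first 3 mice and 2.11 to 2.52 in the others. The first 3 mice were also those with the larger share of counts in the 10 leading genes of the positive library, at 3.34 to 4.42% against 2.52 to 2.59%. The part of either in these results was not tested, and the groups of mice are not groups of the study.

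Depletion was shallow and broad. Myelin and oligodendrocyte genes fell in 14 of 15 cases, against 7.98% of all genes, and the list median was -0.86 ± 0.50 (SD, n = 6), with -1.84 in mouse 194 and -0.89 to -0.46 in the others. Ermn, an actin-binding protein of oligodendrocytes, had 90.2 to 111 CPM in the negative and 17.3 to 60.3 CPM in the positive fractions (2.33-fold lower, adjusted p = 0.0026, edgeR), with the farthest ratio, -2.37, in mouse 194. Cldn11, a claudin of myelin, fell 2.29-fold, and Mag, a myelin adhesion protein, only 1.42-fold. The summed level of the list stayed at 1525 to 3969 CPM in the positive fractions, compared with 5378 to 5971 CPM in the negative. Precursors followed, with 6 of 9 genes lower, among them Pdgfra (1.99-fold, from a median of 39.9 to 21.7 CPM) and Olig1 (1.77-fold).

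The marker lists of 4 cell types came from cell-sorting studies of others. Of the astrocyte list 62 of 137 genes fell and 1 rose, with a median of -0.33 ± 0.15 (SD, n = 6), of the oligodendrocyte list 102 of 192 fell and 2 rose (-0.44 ± 0.18), and of the neuron list 19 of 99 fell and 5 rose (-0.18 ± 0.19), against 7.98% lower and 9.28% higher of all genes. The 5 risen neuron genes are below the share of all genes. Without mouse 155 the risen genes were 11 of the neuron list and 2 of the astrocyte list, both below the 13.7% of all genes that were higher in that fit. The microglial list rose in 225 of 237 cases, 83 modestly and 141 by 5-fold or more. The 4 lists held 137, 192, 99 and 237 of the 13776 tested genes, so most of all genes lie outside them. The microglial list made up 9.1% of the modestly higher genes, and the oligodendrocyte list 9.5% of the modestly lower. Of the 915 modestly higher genes 825 (90.2%) and of the 969 modestly lower genes 802 (82.8%) were in none of the 4, whereas 48.5% of the genes with 5-fold or more were in the microglial one.

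Cell-surface and channel genes made up other depleted lists. Of 34 cadherins and protocadherins 13 fell and 0 rose, of 51 voltage-gated channels 10 fell and 0 rose, of 57 axon-guidance genes 12 fell and 2 rose, and of 55 postsynaptic genes 15 fell and 3 rose, against 7.98% lower and 9.28% higher of all genes. Without mouse 155, where 15.3% of all genes were lower, 24 of the channels and 26 of the axon-guidance genes fell. Gabra4, a subunit of the GABA-A receptor, fell 1.54-fold, from 89.1 to 94.3 CPM in the negative to 54.0 to 70.5 CPM in the positive fractions. Kcnh1, a potassium channel, fell 1.51-fold, Epha4, an ephrin receptor, 1.38-fold and Sema3d, a semaphorin, 2.03-fold. Among guidance receptors, Plxnb2 and Nrp1 rose, by 1.87-fold and 1.46-fold. Of 26 genes of cholesterol synthesis 11 fell, all modestly, and 0 rose (1 without mouse 155, where 13.7% of all genes rose). Of 13 genes of choroid plexus and ependyma 6 fell, such as Clic6 (1.68-fold) and Kl, the Klotho gene (1.64-fold), both with overlapping fractions.

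Immediate early genes, which respond to stimulation and to tissue handling, were higher in 4 of 31 cases and lower in 5, against 9.28% and 7.98% of all genes. Without mouse 155 there were 8 lower, against 15.3% of all genes. Atf3 rose 1.93-fold from a median of 3.52 to 7.17 CPM, whereas Egr1 fell 1.45-fold from 321 to 238 CPM and Egr2 1.59-fold (each of these 2 in 5 of 6 fits). Erythrocyte genes were called in 0 of 5 cases, though their summed level ran from 42.8 to 702 CPM in the positive and from 256 to 742 CPM in the negative fractions. Several housekeeping lists turned on mouse 155. Of 76 genes of the respiratory chain 0 were called in edgeR with all 6 mice, and without mouse 155 there were 22 higher. For 80 cytosolic ribosomal proteins these numbers were 2 and 22, for 77 mitochondrial ribosomal proteins 1 and 22, and for 34 proteasome subunits 0 and 8. The share of all genes called higher rose from 9.28% to 13.7% between these fits. The list medians of mouse 155 were -0.94, -0.86, -0.61 and -0.65 in this order, and those of the other 5 mice averaged 0.23 ± 0.19, 0.19 ± 0.17, 0.20 ± 0.11 and 0.18 ± 0.14 (SD, n = 5). Rpl10a, the gene of the protein that the construct tags, had a log2 ratio of -0.26 in mouse 155 and of 0.65 to 0.82 in the others, and its call as higher was kept in 1 of 6 fits.

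**Figure D4:**
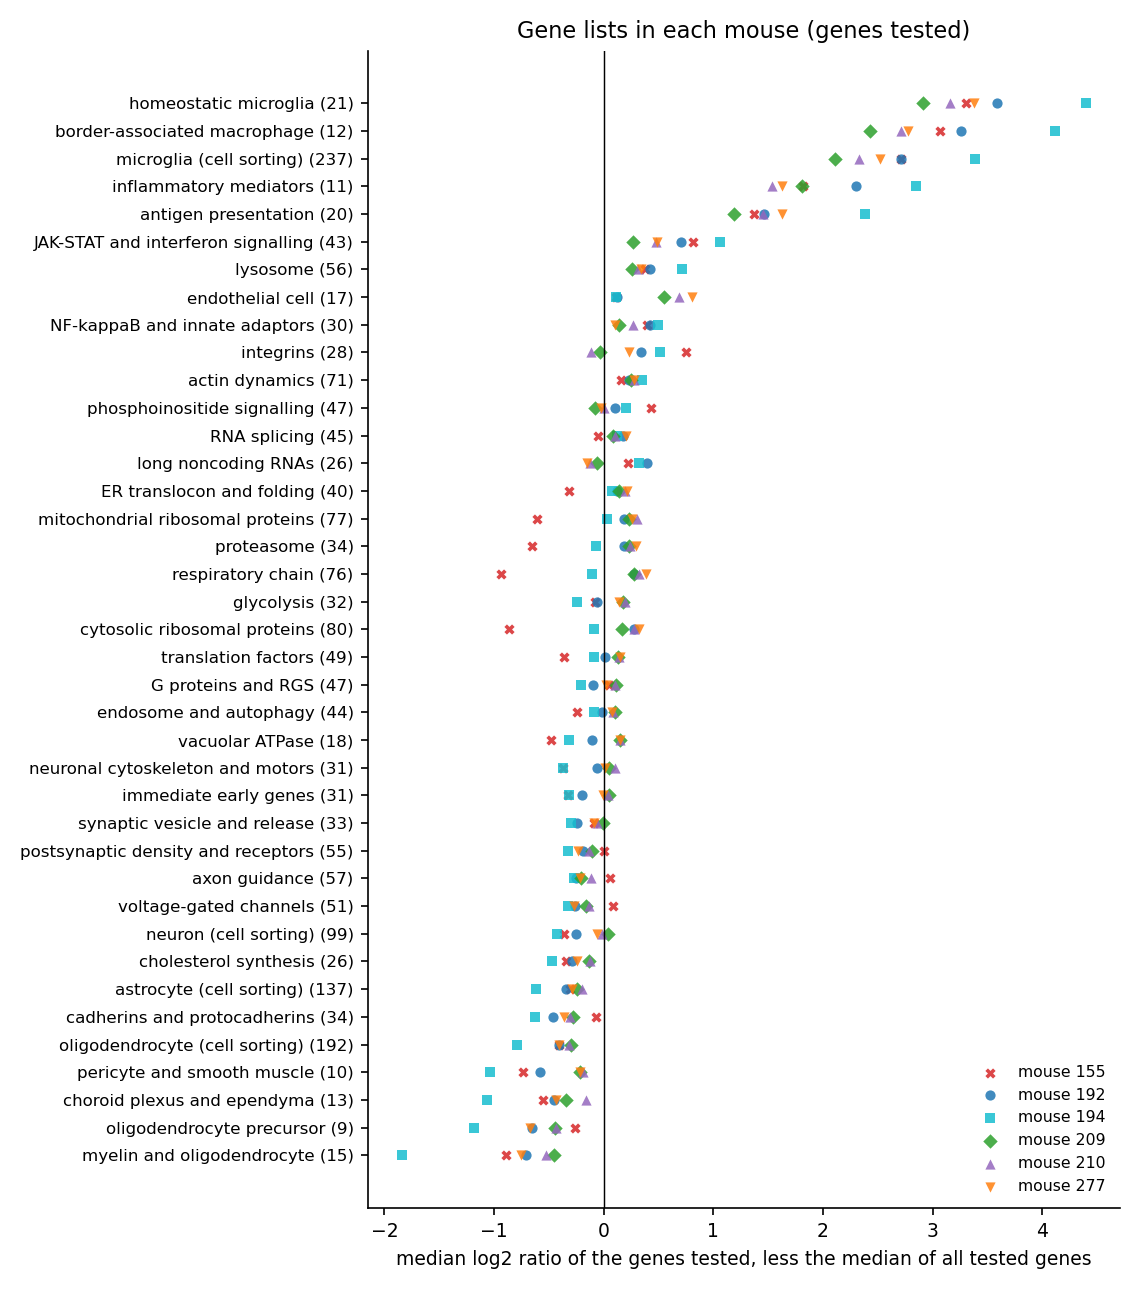
For each list, the median over its tested genes of the log2 ratio between the fractions (x axis, positive over negative, less the median of all tested genes), with a symbol for each of the 6 mice and the number of genes tested in brackets (y axis). Microglial and macrophage lists lie at 2.11 to 4.40, myelin genes at -1.84 to -0.46, and the respiratory chain at -0.94 in mouse 155 and -0.10 to 0.39 in the other mice.

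The modestly lower genes had longer transcripts than the modestly higher ones. Median spliced length was 3586 bases for the lower, 2564 for the higher and 2752 for the genes not called, and 39.5%, 20.2% and 26.4% of them were over 4 kb. Among genes of 4 to 8 kb 343 of 3152 (10.9%) were modestly lower, compared with 15 of 957 (1.57%) up to 1 kb. Shares of modestly higher genes ran from 4.13% over 8 kb to 7.77% at 1 to 2 kb. Without mouse 155, 9.82% of all genes were modestly higher and 13.2% modestly lower, in 5 of 5 mice. In that fit the modestly higher genes were 221 in place of 56 up to 1 kb (23.1%) and 407 in place of 237 at 1 to 2 kb (13.3%). The modestly lower genes were 779 in place of 343 at 4 to 8 kb (24.7%), 132 in place of 35 over 8 kb (28.7%) and 24 in place of 15 up to 1 kb (2.51%), while the 737 in place of 469 at 2 to 4 kb (12.8%) were near the share of all genes. The lower genes also had more counts, with a median over genes of 53.0 CPM in the negative fraction against 16.4 CPM for the modestly higher and 30.4 CPM for the genes not called. Neither property was corrected for.

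To see which of these changes differed from a pulldown of another cell type, the same ratio was taken in the 3 mice of the Aldh1l1 line, in which astrocytes carry the tag, and the difference was tested as an interaction in 1 fit of both lines over 13983 genes. The study put the collection of Cx3cr1 tissue at 3 to 4 weeks after Tam and, stated for flow cytometry and imaging, that of the Aldh1l1 line at a week, so line and interval after Tam cannot be told apart. Values of both lines in the text that follows are from this fit, and those of the Cx3cr1 line differ slightly from those above. In the Aldh1l1 line 4604 genes (32.9%) were higher and 4423 (31.6%) lower in the positive fraction. The ratio was greater in the Cx3cr1 line for 4326 genes (30.9%) and smaller for 3789 (27.1%). Of the modestly higher genes 396 (43.3%) had a greater ratio in the Cx3cr1 line and 181 (19.8%) a smaller one. Of the modestly lower genes these were 343 (35.4%) and 430 (44.4%). Of the genes with 5-fold or more, 280 of 291 had a greater ratio and 0 a smaller one. The classes were set on the same Cx3cr1 libraries that this test uses. That choice alone tilts higher genes to a greater and lower genes to a smaller ratio. These shares are thus no independent check.

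Many modest changes had the same direction in both lines, and others had the opposite direction. Over all genes 32.9% were higher and 31.6% lower in the Aldh1l1 line. Of the 915 modestly higher genes 429 (46.9%) were higher in that line as well and 179 (19.6%) lower. The 429 are 9.32% of the genes higher there, while the class is 6.64% of all genes tested. Of the 969 modestly lower genes 475 (49.0%) were lower there too and 366 (37.8%) higher, so both directions exceeded the share of all genes. The 475 are 10.74% of the genes lower there, while the class is 7.03% of all genes tested. Lysosomal genes belonged to the first kind. Of their 21 modestly higher members 18 were higher in the Aldh1l1 line, and Ctsb had log2 fold changes of 0.56 and 0.65 in the 2 lines, a difference of -0.09 ± 0.12 (SE, adjusted p = 0.534, edgeR). For Ctsd the ratio was still greater in the Cx3cr1 line, by 1.18 ± 0.22 (adjusted p = 0.000558). Blnk, Itgb3, Pde3b and Cd34 rose in the Cx3cr1 line and fell in the Aldh1l1 line, with differences of 4.21, 3.44, 3.53 and 2.57 log2 units. For Msn, Rcbtb2 and Tmem86a the difference did not pass the test, at 0.35 ± 0.20, 0.14 ± 0.15 and 0.36 ± 0.17.

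Depleted lists parted in the same way. Over all genes 32.9% were higher and 31.6% lower in the Aldh1l1 line, and by the interaction 30.9% had a greater and 27.1% a smaller ratio in the Cx3cr1 line. Of the 13 modestly lower myelin genes 12, and all 10 of the voltage-gated channels, were lower in the Aldh1l1 line as well, and by the interaction the ratio was lower there than in the Cx3cr1 line for 14 of 15 myelin and 45 of 51 channel genes. Ermn was at -1.18 in the Cx3cr1 and -3.03 in the Aldh1l1 line, a difference of 1.84 ± 0.30 log2 units (adjusted p = 0.000231, edgeR). All 56 modestly lower astrocyte genes and 10 of the 11 of cholesterol synthesis were instead higher in the Aldh1l1 line. Il33 and Efhd1 had log2 fold changes of -0.99 and -1.08 in the Cx3cr1 line and of 1.93 and 2.17 in the other, differences of -2.92 ± 0.19 and -3.25 ± 0.19. Ezr was at -0.48 in the Cx3cr1 and at 2.97 in the Aldh1l1 line, a difference of -3.45 ± 0.15.

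**Figure D5:**
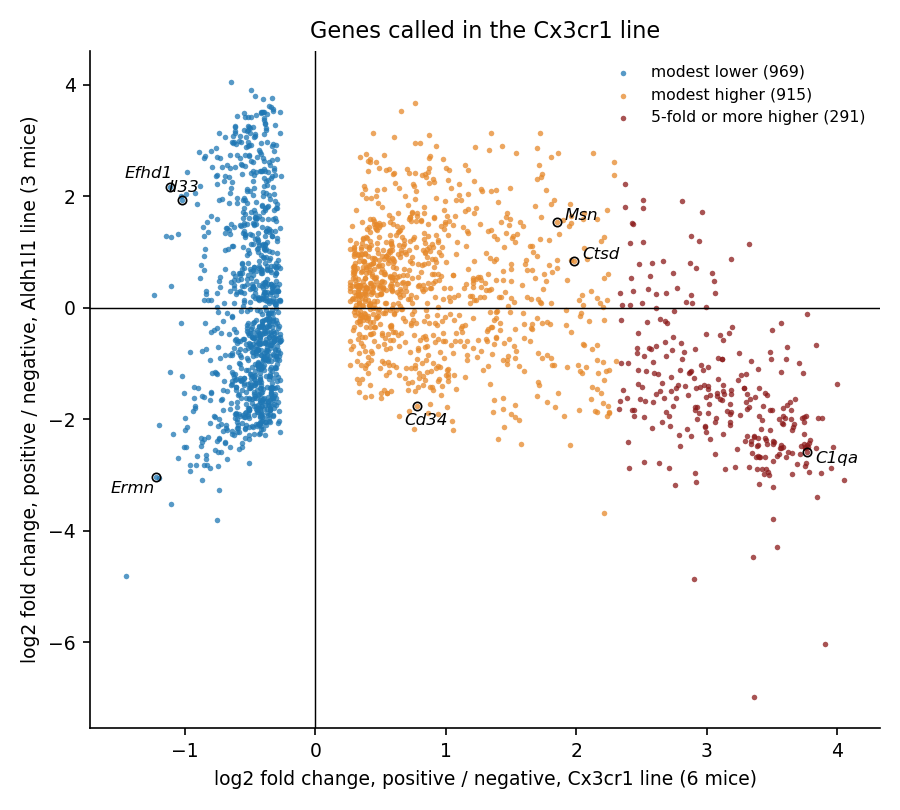
Log2 fold change of positive over negative fraction in the Cx3cr1 line (x axis, 6 mice, fitted alone) and in the Aldh1l1 line (y axis, 3 mice, from the fit of both lines), 1 point per gene of the 3 classes, with 7 genes circled. Modestly higher and modestly lower genes lie on both sides of 0 on the y axis, whereas 192 of the 291 genes with 5-fold or more were called lower in the Aldh1l1 line.

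Against the input of the same mice, which shares the positive libraries and so is no independent check, the log2 fold changes were 1.58 for Msn, 1.53 for Vasp, 1.02 for Camk1 and 2.01 for Ctsd, beside 1.85, 1.44, 0.92 and 1.98 against the negative fraction. For Anln and Ermn they were -1.25 and -1.26, beside -1.09 and -1.22. Itgb8, named here after its values were seen, was at -2.37 against the input and -0.99 against the negative fraction.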

How the data were processed

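TRAP-RNAseq libraries of 6 Cx3cr1-NuTRAP mice (positive and negative fractions) were compared. The authors aligned polyA, strand-specific paired-end reads to mm10 in Strand NGS, assigned them to RefSeq genes and deposited raw values, which are expected counts per gene (82.8% of the nonzero values are not whole) and were rounded here. The deposited log2 values, made by the authors with DESeq normalization, were not used. Depth was 15486605 to 24999098 counts per library.

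Genes passed the filter where all libraries of 1 fraction or the other had over 20 counts, and were tested with edgeR 4.0.16 (R 4.3.3, TMM, robust quasi-likelihood test, two-sided, Benjamini-Hochberg adjustment over all tested genes, threshold 0.05), with the mouse as a block because both fractions come from 1 homogenate. The correlation of the deviations of paired libraries across genes was -0.307 in mouse 155 and -0.031 to 0.248 in the others. Ratios within mice used log2 CPM with a prior count of 2, and CPM were scaled by TMM. Spliced length is the median over GENCODE vM21 basic transcripts. Alternatives were DESeq2 1.42.0, other scalings and filters, no block, inputs in the fit, other fold limits, each mouse left out and, added after the data were seen, limma 3.58.1 with library weights. Scripts were tested on simulated data. Figures were drawn with matplotlib 3.10.9 under Python 3.11.15.

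Named genes were C1qa, Cx3cr1 and Aif1, the 4 with the lowest p in each direction within the bands of 1.2 to 2, 2 to 3 and 3 to 5-fold among modest genes with more than 20 counts in all 12 libraries, members of the lists where these are described, and those that differed between the lines. Some genes that this rule names, and some list members, are not reported here. The 4 cell-sorting lists are in the study's supplement, and the other 38 were written by hand. The members and lists were chosen with earlier results of these data known, so the text gives no test over a list.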

Additional observations from a re-analysis of the deposited data

Results flagged for a closer look

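Of 67 sets of 6 values, 1 per mouse, 16 held a value far from the rest by Dixon's criterion, where chance gives about 1 in 20. The sets come from the same libraries and are not independent, so this count does not measure an excess over chance. Of these, 8 were in mouse 155 and 8 in mouse 194.

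In mouse 155 the list medians (log2 ratio of positive over negative, less the median of all genes) were -0.939 for the respiratory chain (others -0.103 to 0.389), -0.862 for cytosolic and -0.612 for mitochondrial ribosomal proteins, -0.32 for ER translocon and folding and -0.256 for the 2 proteins of the NuTRAP construct. Its medians were -0.608 for transcripts up to 1 kb, -0.273 at 1 to 2 kb and 0.217 at 4 to 8 kb. In mouse 194 they were 2.38 for antigen presentation (others 1.19 to 1.63), 0.715 for the lysosome, -1.84 for myelin, -0.789 for the oligodendrocyte and -0.617 for the astrocyte list, and its ratios were 1 for Cd34, -1.47 for Fa2h and -1.47 for Tspan2. The cause was not tested.

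The ratio differed between the Cx3cr1 and the Aldh1l1 line for 8115 genes by the interaction term in edgeR at an adjusted p under 0.05. For the named genes the differences, Cx3cr1 less Aldh1l1 in log2 units, were 6.4 for C1qa, 5.9 for Cx3cr1 and 5.87 for Aif1. They were 4.21 for Blnk, 3.53 for Pde3b, 3.44 for Itgb3, 2.57 for Cd34, 1.72 for Tgm2, 1.43 for Kctd12, 0.816 for Vasp and 0.76 for Camk1. Among genes lower in the Cx3cr1 line they were 2 for Fa2h, 1.5 for Tspan2, 1.21 for Anln, -2.11 for Fgfr2, -2.41 for Slc13a4, -2.92 for Il33 and -3.25 for Efhd1. Apart from the 3 markers, these genes were named from the Cx3cr1 libraries that the test shares, so their differences are no independent check.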

How the results depend on the processing

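The 3 markers and the 18 genes named by lowest p kept their direction and their side of the threshold under all 14 alternatives. These 18 were picked by lowest p in the same libraries, so they do not stand for their classes. In all 6 fits that leave out 1 mouse, 557 of the 915 modestly higher and 277 of the 969 modestly lower genes stayed called. Of the list members described, Rpl10a, Pfn2, Slc16a1, Gnai1, Tie1, Egr1 and Egr2 lost their call in at least 1 fit that left out a mouse. The counts moved more. In place of 1278 higher and 1100 lower genes, there were 2346 and 2153 with the input libraries in the fit and 2549 and 3000 by limma with library weights, an alternative chosen after seeing the data. Leaving out 1 mouse gave 908 to 1902 higher and 301 to 2134 lower genes, with the lowest number of lower genes without mouse 192 and the highest without mouse 155. Counts of lower genes were also 507 without mouse 194, 732 without mouse 209, 621 without mouse 210 and 447 without mouse 277. The modest class held 629 to 1366 higher and 299 to 1830 lower genes over these fits, and 577 and 237 with a lower limit of 1.5-fold. Without the replicate block the counts were 1759 and 1593, and by DESeq2 1689 and 1512, both within 1.5 times. The remaining scalings and filters also stayed within 1.5 times, with total counts giving 1225 higher and 1338 lower genes.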
